A study of Mus musculus with 12 samples.

Results

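The comparison described here asked how gene expression differed between macrophages given inulin together with TsSP and lipopolysaccharide (LPS) and macrophages given TsSP and LPS without inulin, and how large a change the arrays leave possible. It was made between 3 arrays of RAW 264.7 cells given LPS, TsSP and inulin and 3 arrays of the same cells given LPS and TsSP, out of 12 arrays in all. Its members are the 19505 annotated genes of the array, each read from a single probe set, and most of the account concerns the 1047 genes that responded to TsSP itself. RAW 264.7 is an established macrophage-like mouse cell line. All 4 groups of the study received LPS at 500 ng/mL, and no group was without it. The other 6 arrays carried LPS alone (3) or LPS with inulin (3). Inulin was used at 500 µg/mL and TsSP at 50 µg/mL, and the cells were incubated for 6 hours. TsSP appears in the labels as an abbreviation with no expansion; helminth products are mentioned in the series' design text. All cells came from 1 line, and whether a group's 3 arrays stand for separate cultures is not stated, so p-values and intervals measure the spread between these arrays, which may be technical.

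Inulin is a plant fructan, a chain of fructose units that mammalian enzymes do not digest and that gut bacteria ferment to short-chain fatty acids. LPS, a component of the outer membrane of Gram-negative bacteria, is sensed by Toll-like receptor 4, and macrophages answer it through NF-kB, MAP kinases and interferon regulatory factors with cytokines such as TNF and IL-6, with chemokines and with interferon-stimulated genes. Interleukin-10, haem oxygenase and the suppressor of cytokine signalling proteins restrain that answer, and glycolysis, cholesterol synthesis and cholesterol export are known to shift with it.

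The cells matched their label. All 16 measured macrophage markers, among them Adgre1, Csf1r, Itgam and Spi1, lay above the background probes on all 12 arrays, and their mean log2 signal was 15.03 to 15.08 on the 3 arrays with TsSP and 14.98 to 15.05 on the 3 with inulin as well. None of the measured markers of T cells (4), B cells (4), neutrophils and mast cells (7), dendritic cells (5) or epithelium (5) was above background on any array. Of 5 fibroblast markers Dcn was above background on all arrays, and of 7 osteoclast markers Nfatc1 and Mmp9 were. Mertk, a macrophage receptor for apoptotic cells, was the macrophage marker with an unadjusted p under 0.05 when inulin was added (difference -0.58 on the log2 scale, SE 0.21, limma adjusted p = 0.978). The array of LPS replicate 1 stood apart from the other 11 on the second principal component, at 41.8 against -19.6 to 5.2, and it enters the comparison only through the shared estimate of spread and the choice of responders.

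No gene passed the test when inulin was added to TsSP and LPS. Over 19505 genes, 0 (0%) had an adjusted p under 0.05 in limma's moderated test with Benjamini-Hochberg adjustment, and the smallest adjusted p was 0.876. In bulk RNA, fewer cells expressing a gene and less RNA per cell cannot be told apart, and this holds for every value below. At an unadjusted p under 0.05 there were 971 genes, 4.98% of those tested, 443 of them higher and 528 lower with inulin. Among the 2634 transcript clusters that carry no gene name here 0 passed as well, with 135 (5.13%) at an unadjusted p under 0.05 and a smallest adjusted p of 0.793. For the 3 arrays of either group to lie wholly on one side of the other's 3 is a weaker criterion, which 2161 genes met (11.1%).

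The arrays with and without inulin were also alike as wholes. Pearson correlations over genes were 0.9943 to 0.9952 between a TsSP array and an inulin and TsSP array, 0.995 to 0.9951 among the TsSP arrays and 0.9944 to 0.9947 among the arrays with inulin, against 0.9854 to 0.987 between TsSP arrays and LPS arrays. These are correlations across genes, which are not independent replicates. On the first principal component, which held 48.2% of the variance and separated arrays with TsSP from arrays without it, the mean score was 35.73 ± 0.757 (SD, n = 3) with TsSP and 35.67 ± 1.34 (SD, n = 3) with inulin added. The two-sided exact permutation p was 0.9, and 0.1 is the smallest that 3 against 3 arrays allow. The number of genes above background was 9036 ± 21.0 with TsSP and 8959 ± 34.5 with inulin added (SD, n = 3 each; exact permutation p = 0.1, the smallest possible). The background level itself, the signal of the brightest background probe on an array, was 6.18 ± 0.0265 and 6.26 ± 0.0404 in the same order (exact permutation p = 0.2), and its part in that difference was not tested.

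The genes of main interest are those that TsSP moved. They were taken from the mean TsSP effect, the mean of the 6 arrays with TsSP minus the mean of the 6 without it, whether or not inulin was present. In a balanced design the error of this effect is uncorrelated with the error of the inulin difference, so the choice does not push the inulin differences either way. The choice and the width of the inulin intervals do share 1 estimate of each gene's spread. Genes of large spread are therefore less readily chosen, and the bearing of this on the shares below was not tested. TsSP raised 590 genes (3.02% of 19505) and lowered 457 (2.34%) by at least 2-fold with an adjusted p under 0.05. Those TsSP effects chose the members and are given below only as a description. The limit of 2-fold ran between Tmem41b at a TsSP effect of 1.0002 and Zfp558 at 0.9999 on the log2 scale. Of the 1047 responders, 864 lay above background on all 6 arrays with TsSP, 513 that rose with TsSP and 351 that fell. Values near background are compressed on arrays, and an interval there can understate a change, so the bounds below are counted over these 864 and the other 183 are described apart. Intervals were not narrower near background. Counted over all 1047 responders, the share inside 1.5-fold was 57.5% and the median standard error 0.179, against 67.1% and 0.165 over the 864.

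For most TsSP responders a 2-fold change on adding inulin lay outside the 95% interval of the moderated fit. The interval lay inside 2-fold either way for 827 of the 864 (95.7%), inside 1.5-fold for 580 (67.1%) and inside 25%, a ratio of 5 to 4 either way, for 99 (11.5%). Over all 8614 genes above background on these 6 arrays the same shares were 98.4%, 77.1% and 19%, so responders were bounded somewhat less tightly than genes in general. Their standard errors were larger too, with a median of 0.165 against 0.146 on the log2 scale. Genes above background that TsSP did not move at an adjusted p under 0.05 (4392) had 98.2% inside 2-fold and 74.2% inside 1.5-fold. Responders that fell with TsSP had 96.9% inside 2-fold and 74.1% inside 1.5-fold, and responders that rose had 94.9% and 62.4%. In the median responder the limit further from no change was 1.40-fold, its 90th percentile was 1.77-fold, and the widest was 3.47-fold. Each interval covers its own gene alone and is not adjusted for the number of genes. The tightest of the limits depends on having all 6 arrays: the share inside 25% was 3.02% to 4.42% when any 1 of TsSP replicates 1, 2 and 3 or inulin and TsSP replicates 1, 2 and 3 was left out, while the share inside 2-fold was 91.6% to 93.1%.

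**Figure D1:**
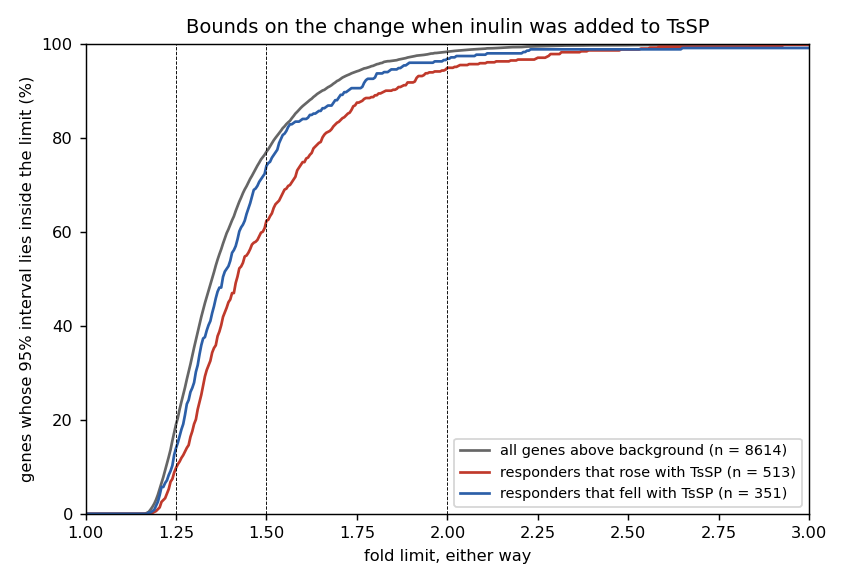
Share of genes (vertical axis, %) whose 95% interval for inulin and TsSP minus TsSP lies inside a given fold limit either way (horizontal axis), for all 8614 genes above background (grey), the 513 responders that rose with TsSP (red) and the 351 that fell (blue). Dashed lines mark a ratio of 5 to 4, 1.5-fold and 2-fold; the red line passes 62.4% at 1.5-fold and the grey line 77.1%.

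The changes themselves were small and nearly centred. Across the 864 responders the difference on adding inulin had a median of -0.036 on the log2 scale, with 5th and 95th percentiles of -0.38 and 0.27. The median was -0.033 for those that rose with TsSP and -0.041 for those that fell, against -0.022 over all 8614 genes above background. In all, 355 responders were higher and 509 lower with inulin, a split that moved with the scaling of the arrays. It was 58.9% lower as deposited, 52.9% lower after quantile normalization and 61.5% lower with arrays centred on the median. An unadjusted p under 0.05 was found for 34 of the 864 (3.94%), against 3.52% of the 8614 genes above background, 3.21% of the 4392 among them that TsSP did not move and 4.98% of all genes. Arrays did not overlap for 113 of the 864 (13.1%), against 12.2% of the 8614 and 11.1% of all genes.

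The bounds can also be set against the size of the mean TsSP effect. That mean includes the arrays with inulin and TsSP, so an inulin change also alters the effect it is measured against. The percentages below are therefore not shares of the effect of TsSP without inulin. The further limit of the interval, as a percent of the same gene's TsSP effect, had a median of 34.0% over the 864 responders. It was under 50% of the effect in 697 (80.7%) and under 25% in 212 (24.5%). In 9 responders the further limit was at least as large as the mean effect. Among the 161 responders of at least 4-fold, 90 that rose and 71 that fell, the median was 20.5%, and 155 (96.3%) stayed under 50% and 113 (70.2%) under 25%. With inulin 446 responders read nearer to the LPS level and 418 further from it. The split ran opposite ways by direction, since most responders read lower with inulin: of those that rose with TsSP 302 read nearer and 211 further, and of those that fell 144 read nearer and 207 further. The median change was -0.481% of the TsSP effect.

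**Figure D2:**
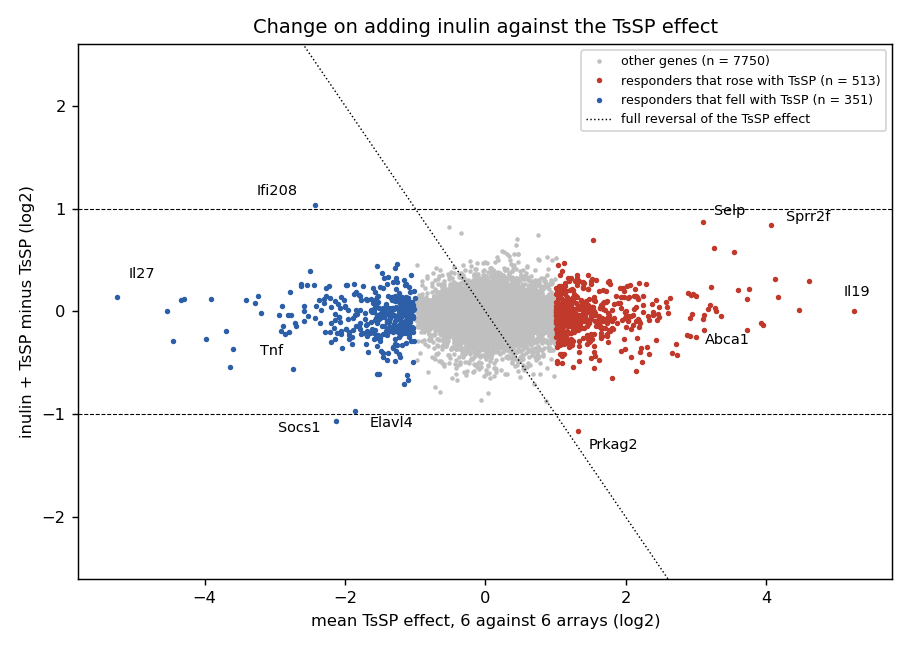
Change when inulin was added to TsSP (vertical axis, log2) against the mean TsSP effect over 6 and 6 arrays (horizontal axis, log2) for the 8614 genes above background on all 6 arrays with TsSP. Red and blue points are the 513 and 351 responders, and dashed lines mark 2-fold. On the dotted line the inulin change equals the mean TsSP effect with the opposite sign. That mean includes the arrays with inulin and TsSP, so the line, labelled full reversal, lies short of a full return to the level without TsSP. Prkag2 and Socs1 lie below the lower dashed line and Ifi208 above the upper.

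Cytokines and chemokines made the group that TsSP lowered most. Of 30 measured members 19 fell by at least 2-fold with TsSP and 0 rose, with a median TsSP effect of -1.60, and 0 passed the test when inulin was added. The median change with inulin was -0.0071 against -0.005 over all genes. Of the 16 responders of the list above background, 15 were bounded inside 1.5-fold and 16 inside 2-fold. Of all 25 members above background 24 were inside 2-fold, and the widest interval, that of Cxcl3, reached 2.55-fold higher. Tnf, the gene of tumour necrosis factor, had a log2 signal of 17.30 ± 0.0599 (SD, n = 3) with LPS alone. With TsSP it read 14.82, 14.69 and 14.55, and with inulin as well 14.43, 14.68 and 14.53. The 2 sets of arrays overlapped and all 6 lay far below LPS alone. The difference was -0.14 (SE 0.12, limma adjusted p = 0.993), with limits of 1.32-fold lower and 1.08-fold higher, where TsSP itself lowered Tnf 6.5-fold. The further limit is 14.7% of that TsSP effect.

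Il6, which encodes the pyrogenic cytokine interleukin-6, read 14.10, 14.07 and 14.24 with TsSP and 14.00, 14.02 and 14.14 with inulin added, against 16.24 ± 0.109 (SD, n = 3) with LPS alone. Its limits were 1.26-fold lower and 1.12-fold higher. Ccl2, the main chemoattractant of monocytes, read 15.40, 15.52 and 15.49 with TsSP and 15.48, 15.39 and 15.50 with inulin added. The Ccl2 arrays interleaved, and the limits of 1.18-fold lower and 1.16-fold higher were narrow. Il1b, the gene of interleukin-1 beta, was 0.13 higher with inulin (95% interval -0.16 to 0.43), which leaves at most 1.34-fold higher. Cxcl10 was bounded within 1.20-fold and Csf1, the macrophage growth factor, within 1.23-fold. Ccl7, another monocyte chemokine, had the smallest p of the list: it read 13.12, 13.09 and 13.21 with TsSP and 12.56, 12.90 and 12.90 with inulin. Those arrays did not overlap, but the difference of -0.35 (SE 0.13) did not pass (limma adjusted p = 0.978). Osm, the gene of oncostatin M, likewise had all 3 inulin arrays at 10.17 to 10.21, below its 3 TsSP arrays at 10.26 to 10.57, with a difference of -0.23 that did not pass (adjusted p = 0.981).

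Il27 and Cxcl9 had the largest falls with TsSP among the cytokines and chemokines, and they read near background there. Il27, the p28 subunit of interleukin-27, read 6.80, 6.82 and 6.38 with TsSP and 6.92, 6.91 and 6.61 with inulin added, where the background level on these arrays was 6.16 to 6.28. Its limits were 1.13-fold lower and 1.38-fold higher, against a fall of 37.9-fold with TsSP. Cxcl9, an interferon-induced chemokine, read 7.02, 7.52 and 6.79 with TsSP and 7.06, 7.33 and 6.95 with inulin added, a difference of 0.0026 with limits of 1.30-fold lower and 1.31-fold higher. Neither gene showed a return toward its LPS level of 11.98 ± 0.0317 for Il27 and 11.65 ± 0.0572 for Cxcl9 (SD, n = 3 each) that passed the test. Csf2, the gene of the growth factor GM-CSF, lay below background on all 6 arrays with TsSP and gives no bound.

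**Figure D3:**
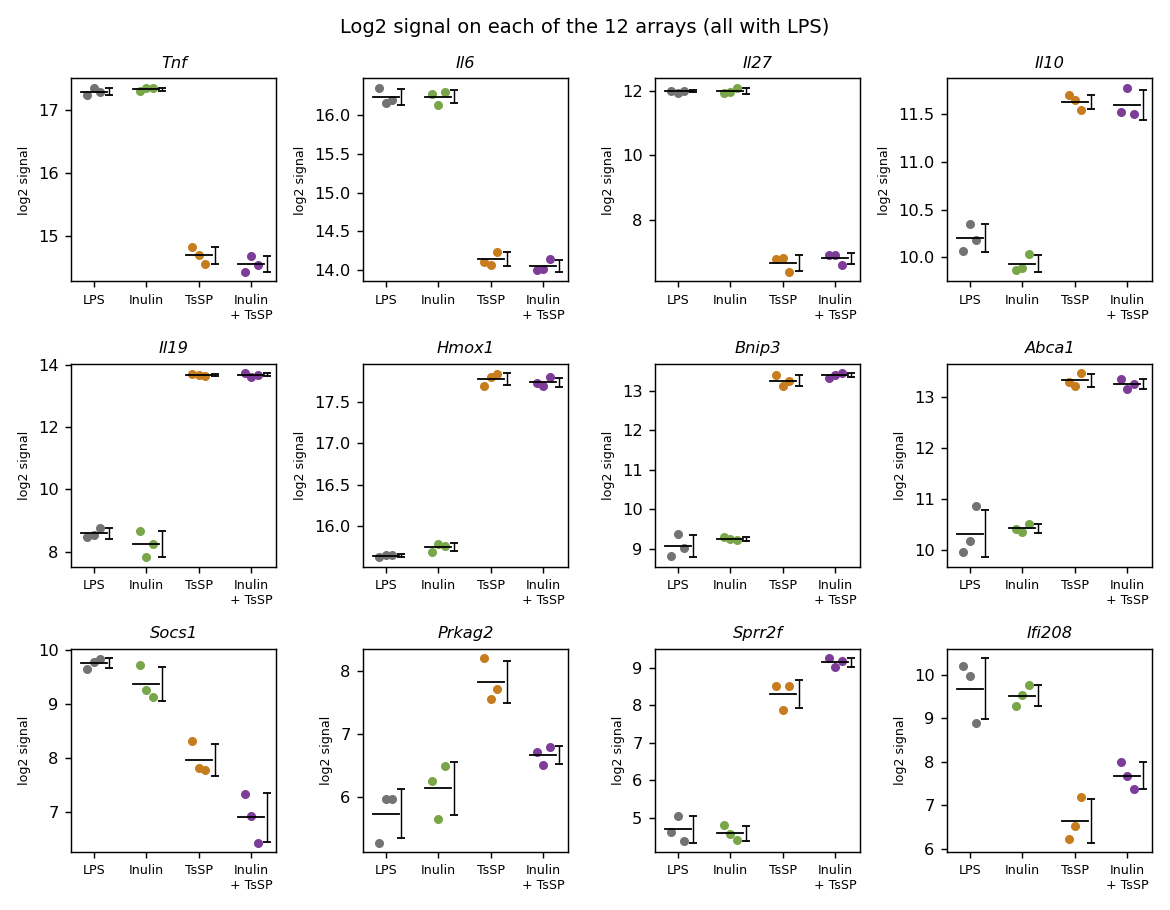
Log2 signal (vertical axis) of 12 genes on each of the 12 arrays, in 4 groups of 3 (points), with the group mean (line) and SD (bar); each panel has its own axis range. The inulin and TsSP arrays of Tnf, Il6, Il27, Il10, Il19, Hmox1, Bnip3 and Abca1 overlap the TsSP arrays, while the bottom row shows 4 genes whose arrays did not overlap.

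Other inflammatory effectors were bounded in the same way. Ptgs2, the inducible cyclooxygenase, was the most tightly held of these, at 16.30, 16.41 and 16.43 with TsSP and 16.38, 16.47 and 16.40 with inulin added, with limits of 1.14-fold lower and 1.20-fold higher. Nos2, the inducible nitric oxide synthase, varied more between arrays, from 15.18 to 15.56 with TsSP and from 14.87 to 15.35 with inulin added, and its interval reached 1.46-fold lower. Cd14, the co-receptor for LPS, did not respond to TsSP (effect 0.03) and was bounded within 1.21-fold. Arg1 and Ifnb1 lay below background on all arrays with TsSP, and their values carry no bound.

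The NF-kB list held 26 measured genes, all above background, of which 5 fell by at least 2-fold with TsSP and 0 rose. None of the 26 passed the test with inulin, the median change was -0.049, and all 5 responders were bounded inside 1.5-fold. Icam1, an adhesion molecule and NF-kB target, read 13.07, 12.83 and 12.95 with TsSP and 12.96, 13.10 and 13.02 with inulin added, within limits of 1.13-fold lower and 1.255-fold higher. Tnfaip3, which encodes the feedback inhibitor A20, differed by -0.01 (limits 1.19-fold lower and 1.17-fold higher). Rel, an NF-kB subunit, had limits of 1.26-fold lower and 1.15-fold higher. Birc2, an inhibitor of apoptosis, was the member with the smallest p, at 8.70, 8.73 and 8.57 with TsSP and 9.20, 8.82 and 9.10 with inulin added (difference 0.37, SE 0.14, limma adjusted p = 0.978).

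Of 36 interferon-stimulated genes 13 fell by at least 2-fold with TsSP and 0 rose, with a median TsSP effect of -0.83. With inulin 0 of 36 passed the test and 0 had even an unadjusted p under 0.05, and the differences ran from -0.27 to 0.26 with a median of -0.016. All 13 responders were bounded inside 2-fold and 11 inside 1.5-fold. Iigp1, an interferon-inducible GTPase, read 8.26, 7.89 and 8.15 with TsSP and 7.62, 7.87 and 8.24 with inulin added, a spread that left limits of 1.49-fold lower and 1.15-fold higher. Tgtp2, a GTPase of the same family with a close copy in the genome whose signal the probes may share, had the widest interval of the list at 1.77-fold lower. Trim21, an antibody receptor and ubiquitin ligase, was higher on all 3 inulin arrays, at 9.81 to 10.05 against 9.54 to 9.75, with a difference of 0.26 that did not pass (adjusted p = 0.993). In the list of antigen presentation and costimulation, 4 of 25 measured genes fell with TsSP and 1 rose, 0 passed with inulin, and all 5 responders were bounded inside 1.5-fold. Icosl, Cd274 (the ligand PD-L1) and Cd40, which fell with TsSP by 2.58-fold to 5.78-fold, had further limits of 1.248-fold, 1.31-fold and 1.20-fold.

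Among genes that restrain inflammation TsSP raised 7 of 28 by at least 2-fold and lowered 4, and 0 of 28 passed with inulin. Il10 read 11.70, 11.65 and 11.55 with TsSP and 11.52, 11.78 and 11.50 with inulin added, against 10.20 ± 0.144 (SD, n = 3) with LPS alone. The arrays overlapped, the difference was -0.03 (SE 0.13, limma adjusted p = 0.998), and the limits were 1.24-fold lower and 1.19-fold higher where TsSP raised Il10 2.94-fold. Il19, a cytokine of the interleukin-10 family, was the strongest rise with TsSP. It read 13.69, 13.67 and 13.64 with TsSP and 13.74, 13.62 and 13.67 with inulin added, with LPS alone at 8.59 ± 0.166 (SD, n = 3). All 6 arrays with TsSP lay between 13.62 and 13.74. The limits were 1.31-fold lower and 1.33-fold higher, and they rest on a spread that the fit shares with the more variable arrays without TsSP. The further limit is 7.73% of its TsSP effect.

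Among the suppressors of cytokine signalling in that list, Socs1 had the widest interval of any list member above background. Of the 24 list members above background, 20 were bounded inside 1.5-fold and 23 inside 2-fold. Socs1, a feedback inhibitor of JAK kinases, read 8.31, 7.81 and 7.77 with TsSP and 7.34, 6.93 and 6.43 with inulin added, and 9.76 ± 0.0977 (SD, n = 3) with LPS alone. All 3 inulin arrays lay below all 3 TsSP arrays, in the direction in which TsSP had moved the gene (effect -2.13). The difference was -1.07 (SE 0.24, limma adjusted p = 0.876), so the change did not pass, and its interval ran from 1.46-fold to 3.01-fold lower. Without TsSP, inulin arrays differed from LPS arrays by -0.39 (95% interval -0.91 to 0.13). Socs2 gave a difference of -0.60 (limma adjusted p = 0.978), with 2 of its 3 inulin arrays below background. Cish, of the same family, fell below background with TsSP and gave no bound. Of 23 measured genes of alternative activation only 9 were above background on all 6 arrays, 0 passed with inulin, and Il4ra, a receptor subunit for interleukin-4 and interleukin-13 that TsSP raised 2.49-fold, had limits of 1.42-fold lower and 1.13-fold higher.

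NRF2 targets rose with TsSP in part, and none passed the test when inulin was added. Hmox1, the haem-degrading enzyme and NRF2 target, read 17.70, 17.80 and 17.84 with TsSP and 17.73, 17.69 and 17.80 with inulin added, within limits of 1.20-fold lower and 1.13-fold higher against a rise of 4.20-fold. Its signal lay toward the upper end of the scale, whose highest value was 18.9, where array signals can flatten. Slc48a1, a haem transporter, was bounded at 1.29-fold lower and 1.14-fold higher. In the NRF2 and oxidative stress list TsSP raised 5 of 25 by at least 2-fold and lowered 0, inulin brought 0 past the test, and differences ran from -0.17 to 0.17.

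Of 33 glycolysis and hypoxia genes 26 rose and 3 fell with TsSP at an adjusted p under 0.05 in limma's test, 15 of them upward and 0 downward by at least 2-fold, with a median TsSP effect of 0.94. With inulin 0 of 33 passed, the median was 0.033, and 14 of the 15 responders were bounded inside 1.5-fold. Bnip3, a hypoxia-induced gene of mitochondrial turnover, read 13.40, 13.13 and 13.26 with TsSP and 13.34, 13.40 and 13.46 with inulin added, with LPS alone at 9.06 ± 0.281 (SD, n = 3). The limits were 1.13-fold lower and 1.37-fold higher beside a TsSP rise of 18.0-fold. Egln1, a prolyl hydroxylase that marks HIF for degradation, was higher on all 3 inulin arrays, at 13.50 to 13.54 against 13.27 to 13.44, a difference of 0.18 with limits of 1.09-fold lower and 1.40-fold higher that did not pass (adjusted p = 0.993). Pdk1, which diverts pyruvate from mitochondria, had the widest interval of the list, 1.5-fold lower to 1.77-fold higher, and its arrays without TsSP were the more variable, with an SD of 0.762 with LPS alone against 0.0453 with inulin and TsSP.

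Genes of cholesterol synthesis rose with TsSP and were tightly bounded. TsSP raised 9 of 20 by at least 2-fold and lowered 0, all 20 were above background, and all 20 were bounded inside 1.5-fold when inulin was added. Sqle, squalene epoxidase, read 14.08, 14.09 and 13.88 with TsSP and 14.12, 14.05 and 13.99 with inulin added, with limits of 1.19-fold lower and 1.248-fold higher. Lss, lanosterol synthase, had the smallest p of the list, with arrays that did not overlap, at 13.46, 13.42 and 13.40 with TsSP and 13.00, 13.17 and 13.26 with inulin added. Its difference of -0.28 (SE 0.13) did not pass (limma adjusted p = 0.981) and was bounded at 1.47-fold lower. Insig1, which holds the sterol sensor in the endoplasmic reticulum, was also lower on all 3 inulin arrays, by 0.17, and did not pass either (adjusted p = 0.993).

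In the list of LXR targets and lipid handling, 17 of 20 measured genes read lower and 3 higher with inulin, with a median of -0.10 against -0.005 over all genes. Of all 19505 genes 9957 read lower, and of the 8614 above background 4827 did. The 15 members above background had a median of -0.090, against -0.022 over those 8614. None of the 20 passed the test and 0 had an unadjusted p under 0.05. Abca1, the cholesterol exporter that TsSP raised 7.55-fold, read 13.29, 13.23 and 13.48 with TsSP and 13.36, 13.17 and 13.26 with inulin added, with limits of 1.41-fold lower and 1.28-fold higher. Abcg1, its partner in export, had fallen with TsSP and read 10.63, 10.68 and 10.84 without and 10.22, 10.44 and 10.64 with inulin. Those arrays overlapped at 10.63 and 10.64, and the difference was -0.28 (95% interval -0.60 to 0.03). Mylip, which degrades the LDL receptor, was bounded at 1.252-fold lower and 1.12-fold higher.

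**Figure D4:**
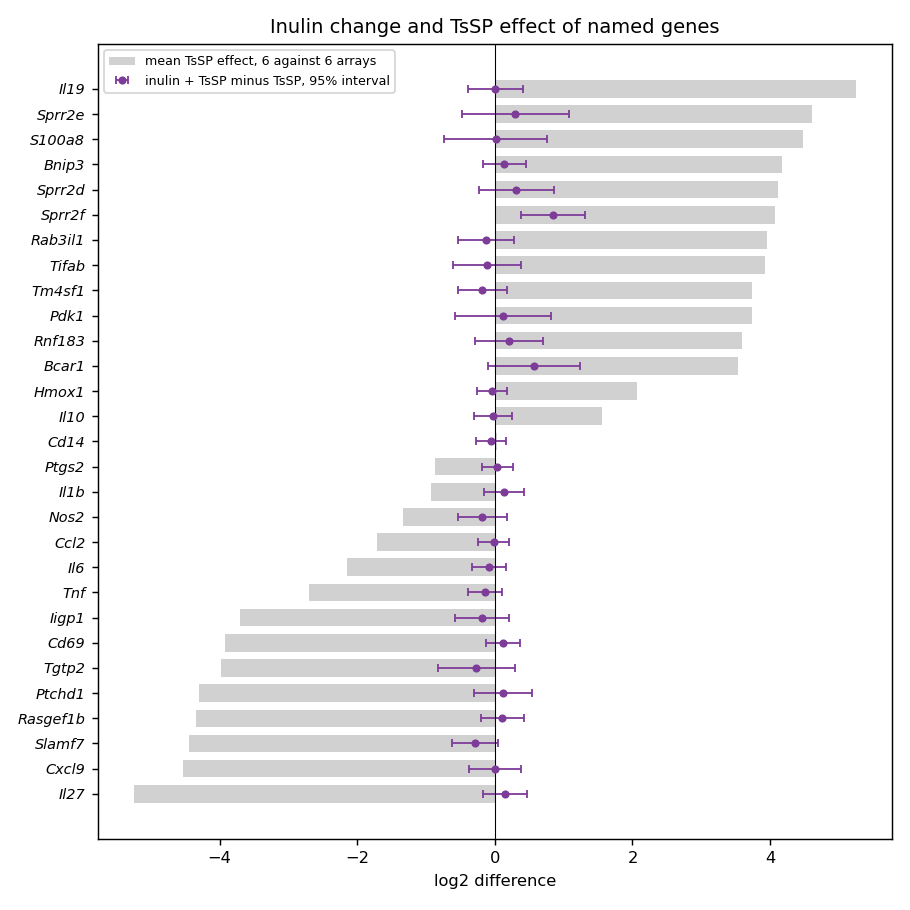
Mean TsSP effect (grey bars, log2) and change when inulin was added to TsSP (purple points, log2, with 95% intervals) for the 12 strongest rises with TsSP, those 8 of the 12 strongest falls that were above background on all 6 arrays with TsSP, and genes of macrophage activation. Of the genes drawn, Sprr2f alone has an interval that leaves out 0, from 0.38 to 1.31.

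Small proline-rich proteins and S100a8 were among the strongest rises with TsSP and among the less tightly bounded. The Sprr2 genes, a cluster of near-identical copies that encode envelope proteins of keratinised cells, may share probe signal, so the values of each are uncertain. Sprr2f read 8.51, 7.86 and 8.50 with TsSP and 9.24, 9.01 and 9.16 with inulin added, with LPS alone below background at 4.69 ± 0.347 (SD, n = 3). Its 3 inulin arrays lay above its 3 TsSP arrays, further in the direction of the TsSP effect, by 0.84 (SE 0.21, limma adjusted p = 0.905). Sprr2d and Sprr2e differed by 0.31 (95% interval -0.24 to 0.86) and 0.30 (-0.48 to 1.08), with overlapping arrays. S100a8, a calcium-binding alarmin of myeloid cells, read 8.84, 8.69 and 8.81 with TsSP and 9.03, 8.19 and 9.15 with inulin added, and its interval allowed 1.67-fold lower to 1.70-fold higher. Bcar1, an adaptor of adhesion signalling, was higher on all 3 inulin arrays (7.35 to 7.49 against 6.63 to 7.01) by 0.58, which did not pass (adjusted p = 0.981). Of the other strong rises, Rab3il1, Tifab, Tm4sf1 and Rnf183 had further limits of 1.46-fold, 1.52-fold, 1.45-fold and 1.63-fold.

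Of the strong falls not yet described, Slamf7, a receptor of the SLAM family, read 10.18, 10.02 and 10.09 with TsSP and 9.74, 10.06 and 9.61 with inulin added. Its difference of -0.29 was bounded at 1.54-fold lower. Cd69, an early activation antigen, Rasgef1b, an exchange factor for Ras-like proteins induced by LPS, and Ptchd1 had further limits of 1.29-fold, 1.34-fold and 1.46-fold, against TsSP falls of 15.1-fold to 20.3-fold. As a percent of the TsSP effect, the further limits of these 3 genes were at most 12.7%, in Ptchd1.

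In the list of pattern recognition and phagocytic receptors TsSP raised 3 of 38 and lowered 7, 0 passed with inulin, and all 8 responders above background were inside 1.5-fold. Nlrp3, the inflammasome sensor, read 13.30, 13.16 and 13.25 with TsSP and 12.88, 13.21 and 13.20 with inulin added, within 1.32-fold lower and 1.09-fold higher. Clec4a2, a C-type lectin inhibitory receptor, differed by -0.01 with limits of 1.44-fold lower and 1.42-fold higher. Card9, an adaptor of fungal recognition and no TsSP responder, had the smallest p at 0.0425 (difference -0.47, limma adjusted p = 0.981). Of 37 immediate early genes and MAPK feedback inhibitors, TsSP raised 2 and lowered 10, inulin brought 0 past the test, and 9 of 11 responders were inside 1.5-fold. In that list Fos was bounded at 1.19-fold lower and 1.43-fold higher, and Plk2 at 1.17-fold lower and 1.27-fold higher. Egr1 varied from 6.42 to 7.44 on the inulin arrays and was bounded within 1.49-fold.

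Stress response genes of the unfolded protein and integrated stress list (30) had 3 rises and 4 falls with TsSP and 0 calls with inulin, and all 6 of its responders above background were inside 1.5-fold. Chac1 and Sesn2, both targets of ATF4 that TsSP lowered, were bounded at 1.35-fold and 1.44-fold lower. Prostaglandin and leukotriene enzymes had 3 rises of 23 with TsSP, and those responders, Pla2g7, Abcc4 and Alox5ap, had further limits of 1.28-fold, 1.41-fold and 1.23-fold. In that list 0 passed with inulin, and 1 member was higher and 1 lower at an unadjusted p under 0.05. Of its 14 members above background 11 were inside 1.5-fold, and the widest interval, that of Ptges3, reached 1.68-fold higher. Cell cycle genes had 3 rises and 1 fall of 32 with TsSP and 0 calls with inulin. Cdk1 was higher by 0.29 and Cdc25a lower by 0.28 with inulin at unadjusted p = 0.0336 and 0.0483, and neither passed (limma adjusted p = 0.978 and 0.981). Ribosomal proteins, none of which responded to TsSP, give the scale of precision for bright and steady genes: all 23 were inside 1.5-fold and their differences ran from -0.068 to 0.15.

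The lists nearest to inulin itself, as a fructan and a source of short-chain fatty acids, held few TsSP responders. Of 17 measured sugar transporters and fructose-handling genes 11 were above background, 0 passed the test, and the median of -0.14 over all 17 was -0.021 over those 11. Slc2a1, the glucose transporter GLUT1 and the responder of the list, read 17.44, 17.27 and 17.36 with TsSP and 17.15, 17.24 and 17.26 with inulin added. The lowest TsSP array lay just above the highest inulin array, and the difference of -0.14 was bounded at 1.30-fold lower and 1.07-fold higher. Slc2a9, a urate transporter of the glucose transporter family, read 8.60, 8.32 and 8.65 with TsSP and 8.10, 7.90 and 8.03 with inulin added, a difference of -0.51 (SE 0.13) that did not pass (limma adjusted p = 0.905). The fructose transporter Slc2a5 was below background on all 6 arrays. Of 15 genes of short-chain fatty acid receptors and carriers 9 were above background and 0 passed. Hcar2, the receptor for niacin and beta-hydroxybutyrate, and Slc16a1, the monocarboxylate carrier MCT1, were the TsSP responders there, with further limits of 1.27-fold and 1.40-fold. Ffar2, a short-chain fatty acid receptor, lay below background on all 6 arrays.

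Over the 18 lists together, 463 distinct genes were measured and 15 of them (3.24%) had an unadjusted p under 0.05 with inulin, against 3.52% of genes above background and 4.98% of all genes. List medians ran from -0.14 to 0.039.

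**Figure D5:**
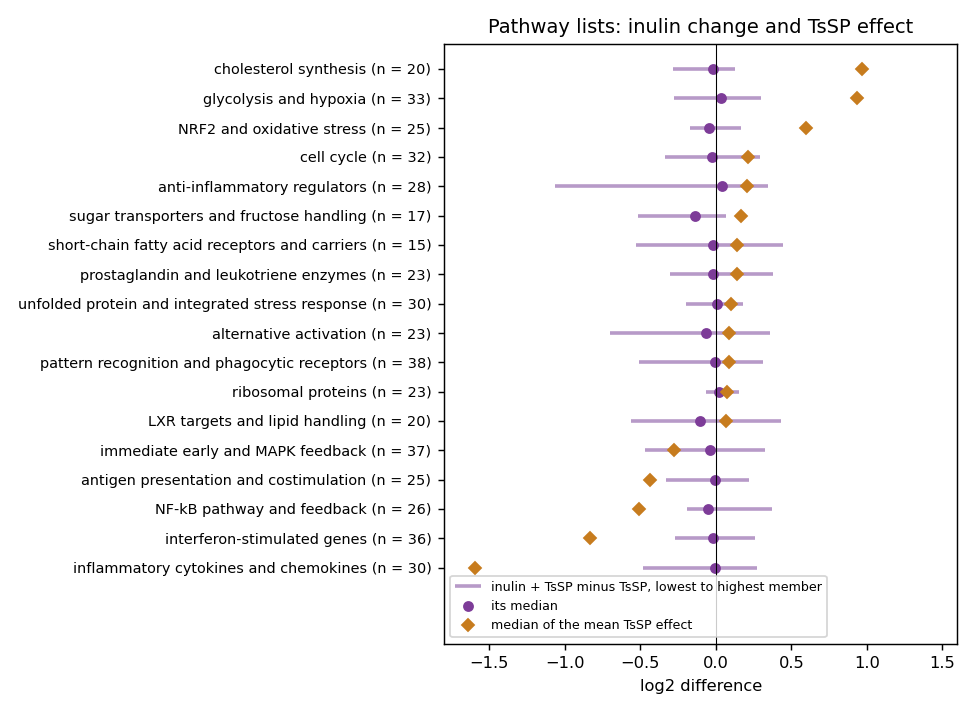
For each of 18 gene lists, the median change when inulin was added to TsSP (purple point, log2), the range from its lowest to its highest measured member (purple line) and the median of the mean TsSP effect over the same members (orange diamond). The TsSP medians run from -1.60 to 0.97, and the inulin medians from -0.14 to 0.039.

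A small number of responders were left with wide bounds. For 37 of the 864 the interval was not inside 2-fold. Prkag2, a regulatory gamma subunit of the energy sensor AMPK, had the lowest difference of all responders. It read 8.21, 7.56 and 7.72 with TsSP and 6.72, 6.51 and 6.79 with inulin added. With LPS alone it read 5.74 ± 0.395 (SD, n = 3), below background on all 3 arrays. All 3 inulin arrays lay between the TsSP arrays and the LPS arrays. The difference was -1.16 (SE 0.25, limma adjusted p = 0.876), and the interval reached 3.28-fold lower. That limit is 130% of the mean TsSP effect of 1.32, which the low inulin arrays reduce. Without inulin the mean signals were 7.83 with TsSP and 5.74 with LPS alone, which lie further apart. Without TsSP, inulin and LPS arrays differed by 0.40 (95% interval -0.16 to 0.95).

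Ifi208, an interferon-inducible gene of the PYHIN family with close relatives beside it, had the highest difference. It read 6.22, 6.53 and 7.20 with TsSP and 8.00, 7.68 and 7.37 with inulin added, against 9.68 ± 0.703 (SD, n = 3) with LPS alone, so the inulin arrays lay nearer to LPS. The difference of 1.03 (SE 0.34) did not pass (limma adjusted p = 0.978), and its interval ran from 0.29 to 1.77. Elavl4, a neuronal RNA-binding protein, read 7.35, 8.21 and 7.56 with TsSP and 6.88, 6.37 and 6.97 with inulin added, a difference of -0.96 that had the widest limit of all, 3.47-fold lower. Its SD over 3 arrays was 0.448 with TsSP, 0.323 with inulin and TsSP, 0.903 with LPS alone and 0.162 with inulin and LPS. Selp, the adhesion molecule P-selectin, was below background without TsSP and read 6.65, 7.22 and 7.12 with it and 8.10, 7.41 and 8.08 with inulin added (difference 0.87, 95% interval 0.24 to 1.5). Myo9a, an unconventional myosin, overlapped between groups, with limits of 1.11-fold lower and 2.93-fold higher. These genes lay at log2 signals of 6.2 to 8.4 with TsSP, not far above the background of 6.16 to 6.28, whereas Tnf, Il6 and Hmox1 lay at 14.0 and above.

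Among other annotated genes above background in at least 1 of the 2 groups, predicted genes, chemosensory receptors and small RNA genes left aside, the smallest p belonged to the following. Lower with inulin were Tarbp1, an RNA methyltransferase (-0.61), Wrn, a DNA helicase (-0.61), the kelch proteins Klhl36 (-0.55) and Klhl2 (-0.58), and Agap1, which acts on Arf GTPases (-0.55). Lipg, endothelial lipase and a TsSP responder, was lower as well, at 7.85, 8.34 and 7.79 against 8.77, 8.58 and 8.76. Higher with inulin were Phkg1, a phosphorylase kinase subunit that was below background on the 3 TsSP arrays (0.86), Ncapg2, a condensin subunit (0.70), Pstk, a kinase of selenocysteine tRNA synthesis (0.70), Zfp326 (0.56), Tnnc1, a troponin (0.53), and the peroxisomal import factors Pex7 (0.37) and Pex14 (0.37). In each of them the arrays did not overlap, which a choice by the smallest p of this same comparison makes likely and which adds no support. The adjusted p was 0.905 to 0.978 in limma's test, so none passed. Genes outside that choice did not pass either. Slc22a23, which had the smallest p of all 19505 genes, was below background on all 6 arrays, with mean signals of 3.67 with TsSP and 4.85 with inulin added. The predicted gene Gm5434 was below background at 5.62, 6.02 and 5.97 with TsSP and above it at 7.07, 6.37 and 7.02 with inulin added (difference 0.95, SE 0.21, limma adjusted p = 0.876). Pex14, by contrast, lay well above background, at 11.18, 11.19 and 11.17 with TsSP and 11.58, 11.63 and 11.43 with inulin added.

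The 183 responders not above background on all 6 arrays with TsSP comprised 77 that rose with TsSP and 106 that fell. Of the risers 37 were above background on none of the 6 arrays and 40 on some, and of the fallers 62 on none and 44 on some. Ch25h (cholesterol 25-hydroxylase), Ccl20, Ccl17 and Nod1 were among those that fell below background with TsSP. Only a return large enough to lift the signal past background would have shown as a signal above it, and a smaller one could have stayed below. Ch25h read 4.81, 4.89 and 4.80 with TsSP and 4.62, 4.84 and 4.46 with inulin added, against 9.41 ± 0.244 (SD, n = 3) with LPS alone, so no return was detected. Crym was the single faller on the background side with TsSP, at 6.09 to 6.13, that was above it on all 3 inulin arrays, at 6.30 to 6.35, and the difference of 0.22 was small (adjusted p = 0.997). Of the risers, Sirpb1c and Stfa3 were above background on all 3 TsSP arrays and on none of the 3 with inulin, with differences of -0.42 and -0.58 that did not pass (adjusted p = 0.997 and 0.981).

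Whether inulin acted differently with TsSP present was tested directly as an interaction. Of 19505 genes 0 (0%) passed, the smallest adjusted p was 0.646, and 1089 (5.58%) had an unadjusted p under 0.05. The inulin difference with TsSP and the inulin difference with LPS alone rest on different arrays, and over the 864 responders they had the same sign in 444 (51.4%), with a Pearson correlation across genes of 0.023, given as a description. Only Ntpcr among the 864 had an unadjusted p under 0.05 in both, and with opposite signs: this nucleoside triphosphatase was lower by 0.41 with TsSP (95% interval -0.74 to -0.087) and higher by 0.77 without it (0.44 to 1.09). Its interaction of -1.18 did not pass (limma adjusted p = 0.646). Of the 8614 genes above background, 22 had an unadjusted p under 0.05 in both settings, 9 of them with the same sign. Among all 19505 genes there were 93, and 50 of them had the same sign. Inulin averaged over both settings, 6 arrays against 6, gave narrower intervals and again 0 genes (0%) past the test, with a smallest adjusted p of 0.528 and 1047 genes (5.37%) at an unadjusted p under 0.05. In that average Tnf differed by -0.05 (95% interval -0.23 to 0.13) and Il6 by -0.042 (-0.22 to 0.13). Socs1 differed by -0.73 (-1.10 to -0.36) and did not pass (limma adjusted p = 0.834).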

How the data were processed

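RNA was hybridised to 12 Affymetrix mouse arrays, 3 per group, and groups were taken from the labels. The deposited table gives 1 log2 value per probe set and array. The base of the logarithm was read from the values (1.32 to 18.9); the authors' background correction, normalization and software were not given in the sources used here, and any compression of dim or bright signals by them enters every fold. Values were used as deposited. Of 28846 probe sets, 19572 carry 1 gene symbol, all matched to the RefSeq annotation of GRCm38.p6 for names; for 55 genes with several, the probe set with the highest mean was kept.

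All contrasts came from 1 limma 3.58.1 model (R 4.3.3) with 4 group means over 12 arrays (8 residual and 3.35 prior degrees of freedom). Two-sided p-values were adjusted over 19505 genes (Benjamini-Hochberg, threshold 0.05); intervals are moderated 95% intervals, and folds are powers of 2. Background is the brightest of 23 background probes on an array. The script was tested on simulated data. Figures were drawn with matplotlib 3.10.9.

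Named genes were 11 genes of macrophage activation, the 12 largest TsSP rises and falls, the 8 smallest p each way with inulin (genes above background on all 3 arrays of at least 1 of the 2 groups, predicted genes, chemosensory receptors and small RNA genes left out), up to 5 members of each list and the 6 responders with the furthest limits; list members named beyond these, Mertk, Ntpcr, Slc22a23, Gm5434 and genes that crossed background were chosen after their values were seen. The responders, lists and comparison were chosen with earlier results of these data known. Alternatives covered scaling, dim genes, prior, array weights, probe sets, a replicate block, the arrays fitted, the choice of responders, the confidence level and each array left out.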

Additional observations from a re-analysis of the deposited data

How the results depend on the processing

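The count of genes past the test for inulin added to TsSP, for the interaction and for inulin over both settings was 0 under every alternative run, with a smallest adjusted p for inulin added to TsSP between 0.321 (without LPS replicate 2) and 0.985 (replicate block). TsSP responders numbered 958 to 1075 under other processing, 1149 when chosen by TsSP against LPS alone, 1081 by TsSP added to inulin and 196 at 4-fold. The share of responders bounded inside 1.5-fold (67.1%) was 40.5% with 99% intervals, 57.5% with no background filter, and 54.2% to 68.5% when arrays were left out in turn. The share inside 25% (11.5%) depended most on the processing: it was 18.2% when only genes above background were fitted, 21.6% with a mean-variance trend, 6.48% with the replicate block, 6.37% from the 6 arrays with TsSP alone, 6.83% for responders of at least 4-fold, 0% with 99% intervals, and 3.02% to 12.7% when arrays were left out in turn. The share inside 2-fold was 87.3% to 97%. The replicate block changed no call. Same-numbered arrays did not deviate together (18 pairs, r from -0.098 to 0.119), so the numbers were not taken as pairs. Of the named genes, 0 passed in any setting, and leaving out arrays widened the furthest limits of Prkag2 to 3.78-fold and of Elavl4 to 4.25-fold. With 3 arrays a group, a change of 25% could not be bounded for most responders, and no bound was given for any single gene below background.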
